A study of Mus musculus with 24 samples.

Results

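Lung RNA of mice given BayTubes, a commercial carbon nanotube, was compared with lung RNA of mice given fullerene, a closed cage of carbon atoms. The samples were chosen by their titles, 4 ending in BayTubes and 4 ending in fullerene, and make up 8 of the 24 samples of the series. The titles number them BayTubes 17 to 20 and fullerene 21 to 24. All mice were female C57BL/6 aged 7 to 8 weeks. BayTubes mice received the nanotube and fullerene mice the cage, each at 10 µg a day in 50 µl of PBS, for 4 days, by oropharyngeal aspiration, a route by which liquid placed in the throat is inhaled. Lung tissue was collected 24 h after dosing ended. The other groups had the same dosing with rCNT (3 samples) or tCNT (3), which are carbon nanotubes too, SES (3), a material whose name the labels do not explain, or Graphite (4), and the Ctrl mice (3 samples) received PBS alone. Every sample was a pool of RNA from 2 mice, so the spread between samples is that between pools.

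The comparison asks which lung genes separate the response to a tube from that to a cage of the same element in a pair of groups with alike levels of circadian clock genes. Inhaled tubes can settle on the airways, whose lining holds multiciliated cells that sweep mucus upward and secretory cells that make it. A multiciliated cell forms when a precursor stops dividing and builds many centrioles at once, mostly on a temporary body called the deuterosome, and each centriole then becomes the base of a motile cilium. The step is run by the regulators geminin coiled-coil protein 1 and multicilin, which act with E2F factors, and by RFX and forkhead factors that turn on cilium genes. Membrane mucins, by contrast, stay anchored on the surface of airway cells, and acute phase and chemokine genes mark inflammation of the lung.

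Signals are log2 values of 1 spot per gene, 16530 genes were tested, and a gene counted as changed at an adjusted p under 0.05 in limma with terms for group and dye. Lung markers were bright in both groups: Sftpc, the surfactant protein of alveolar type 2 cells, had signals of 17.38 to 17.97 in BayTubes samples and 17.33 to 17.55 in fullerene samples. Scgb1a1, the main secretory protein of club cells, had 17.33 to 17.47 in BayTubes samples and 17.40 to 17.97 in fullerene samples. Each dye held 2 samples of either group and no array held both groups. The slides were unequal: slides 1, 2 and 3 held 3, 1 and 0 BayTubes samples against 1, 1 and 2 fullerene samples, so values within slides 1 and 2 stand beside the main results. In lung RNA, a changed number of cells of a type and a changed RNA level per cell cannot be told apart. Fullerene 21 stood apart from the other fullerene samples in inflammatory genes, and results that rest on it are given with and without it. Since those genes singled it out, their values without it are a description and no independent support.

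Of the genes tested, 6 changed, which is 0.0363%, and all 6 were higher in BayTubes lungs. None was lower, which is 0%. The count moved with the setting: with sample weights 22 genes passed in limma, 9 higher and 13 lower, and with array as a fixed term 0 passed, with 726 at an unadjusted p under 0.05. The 6 genes were Ccno, Deup1 and Foxn4, which belong to the formation of multiciliated cells, the membrane mucin genes Muc4 and Muc20, and Ear6, an eosinophil-associated ribonuclease. The changes were 1.76-fold to 2.24-fold, and 4 of the 6 were at least 2-fold. Without adjustment, 806 of the 16530 genes had a p under 0.05, of which 292 were higher and 514 lower in BayTubes samples. About as many are expected at such a p when no gene differs, so this count of the main fit is no sign of a wider response. The count varied between settings. It was highest with sample weights, at 2778, and with only the BayTubes and fullerene samples, at 2046. Why the counts differ was not tested.

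The start regions of the 3 multiciliated cell genes are shown first, since these genes moved together. They are RefSeq promoters of build GRCm38.p6, from 250 bases before to 50 bases after the start, written 5′ to 3′ on the gene's own strand. Capitals mark the letters GTTGCC of an RFX half-site or TCCCGC of an E2F core, on either strand (GGCAAC and GCGGGA on the other). These motifs were chosen after the genes were known. The Ccno promoter lies at chr13:112987552-112987851 on the plus strand, the first Deup1 promoter at chr9:15627797-15628096 and the Foxn4 promoter at chr5:114273712-114274011, both on the minus strand.
Ccno: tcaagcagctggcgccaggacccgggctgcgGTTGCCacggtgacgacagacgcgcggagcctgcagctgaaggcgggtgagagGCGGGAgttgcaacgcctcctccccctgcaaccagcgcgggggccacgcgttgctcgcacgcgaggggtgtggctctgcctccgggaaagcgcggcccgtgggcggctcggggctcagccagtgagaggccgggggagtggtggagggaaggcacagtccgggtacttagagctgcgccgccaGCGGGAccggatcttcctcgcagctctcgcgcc
Deup1: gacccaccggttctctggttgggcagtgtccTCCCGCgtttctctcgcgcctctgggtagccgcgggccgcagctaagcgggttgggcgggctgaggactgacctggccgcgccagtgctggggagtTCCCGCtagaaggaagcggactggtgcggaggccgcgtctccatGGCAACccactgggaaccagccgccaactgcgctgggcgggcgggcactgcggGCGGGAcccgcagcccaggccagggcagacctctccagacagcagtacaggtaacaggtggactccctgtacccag
Foxn4: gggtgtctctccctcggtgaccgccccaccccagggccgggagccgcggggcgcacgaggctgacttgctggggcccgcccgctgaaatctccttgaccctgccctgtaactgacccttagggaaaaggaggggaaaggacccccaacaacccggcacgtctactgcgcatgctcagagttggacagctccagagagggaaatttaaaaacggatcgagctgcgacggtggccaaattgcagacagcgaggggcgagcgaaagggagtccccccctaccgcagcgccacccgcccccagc
The Ccno promoter holds 1 RFX half-site and 2 E2F cores, and the first Deup1 promoter holds 1 RFX half-site and 3 E2F cores. The Foxn4 promoter holds neither in these 300 bases, nor does a second Deup1 promoter of the table. Of the other changed genes, the Muc4 promoter holds 1 RFX half-site and no E2F core, and those of Muc20 and Ear6 hold neither. The RFX half-site stands in 12.5% of the 32851 promoters of the table and the E2F core in 20.0%. Among the 13089 tested genes with a promoter there, the shares are 14.7% and 34.6%. A match in such a window describes letters and does not show binding.

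Ccno encodes cyclin O, which is needed to amplify centrioles in multiciliated cells. Its signals were 11.40, 10.97, 10.91 and 11.17 in BayTubes samples 17 to 20, against 10.54, 10.10, 9.70 and 9.37 in fullerene samples 21 to 24. The lowest BayTubes sample lay above the highest fullerene sample, and the fullerene samples were spread more widely. The difference was 1.16 ± 0.18 on the log2 scale (SE, n = 4 samples each, limma adjusted p = 0.0213), or 2.24-fold. Within slide 1 it was 1.36 and within slide 2 it was 1.06. Ccno lies on chromosome 13 from 112987802 to 112990778 (GRCm38.p6), next to the multicilin gene Mcidas and to Cdc20b.

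Deup1 encodes a core protein of the deuterosome. Its signals were 11.49, 11.13, 11.17 and 11.19 in BayTubes samples 17 to 20, against 10.51, 10.46, 10.04 and 9.64 in fullerene samples 21 to 24. The groups did not overlap, with the BayTubes samples close together. Deup1 was higher by 1.12 ± 0.18 (SE, n = 4 each, limma adjusted p = 0.0221), or 2.18-fold. The difference within slide 1 was 1.25 and within slide 2 was 0.68. Its 2 dimmer spots on the array differed by 0.77 and 0.49, also with the BayTubes mean higher.

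Foxn4 encodes a forkhead transcription factor that in Xenopus frogs turns on genes of multiciliated cells. Foxn4 had signals of 9.81, 9.55, 9.33 and 9.49 in BayTubes samples 17 to 20, against 8.95, 8.70, 8.42 and 7.99 in fullerene samples 21 to 24. Again every BayTubes sample was above every fullerene sample. The log2 difference was 1.05 ± 0.17 (SE, n = 4 each, limma adjusted p = 0.0213), or 2.07-fold, with 1.19 within slide 1 and 0.73 within slide 2. In all 3 genes, fullerene 21 was the highest fullerene sample and fullerene 24 the lowest, both on slide 3, and BayTubes 17 was the highest BayTubes sample.

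Muc4 encodes a large membrane mucin of airway cells. Muc4 signals were 11.79, 11.70, 11.52 and 11.62 in BayTubes samples 17 to 20, against 10.99, 10.92, 11.11 and 10.52 in fullerene samples 21 to 24, with no overlap. The difference was 0.82 ± 0.14 (SE, n = 4 each, limma adjusted p = 0.0389), or 1.76-fold. It was 0.65 within slide 1 and 0.70 within slide 2, and a dimmer Muc4 spot differed by 0.51.

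Muc20 encodes a smaller membrane mucin. The signals of Muc20 were 10.50, 10.78, 10.54 and 10.50 in BayTubes samples 17 to 20, against 9.94, 9.67, 9.90 and 9.91 in fullerene samples 21 to 24. The samples of each group were close together and the groups did not overlap. Muc20 was higher by 0.83 ± 0.13 (SE, n = 4 each, limma adjusted p = 0.0213), or 1.77-fold, with 0.71 within slide 1 and 0.89 within slide 2. A second Muc20 spot, far dimmer at means of 6.44 in BayTubes and 6.43 in fullerene samples, differed by 0.10. The genes are neighbours on chromosome 16: Muc4 runs from 32735886 to 32782391 and Muc20 from 32777419 to 32797435 (GRCm38.p6), on opposite strands, and they share 4973 bases. Where the spots lie relative to the shared bases was not analysed here.

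Ear6 encodes a secreted ribonuclease of a rodent family linked to eosinophils, with close copies in the genome that a spot may not tell apart. Ear6 had 8.87, 8.91, 8.99 and 8.93 in BayTubes samples 17 to 20, against 8.01, 7.78, 7.70 and 7.59 in fullerene samples 21 to 24. The BayTubes samples lay within a narrow band above all fullerene samples. Ear6 was higher by 1.13 ± 0.18 (SE, n = 4 each, limma adjusted p = 0.0213), or 2.20-fold, and by 0.98 within slide 1 and 1.21 within slide 2. Ear6 is on chromosome 14 from 51853768 to 51854643 (GRCm38.p6).

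**Figure D1:**
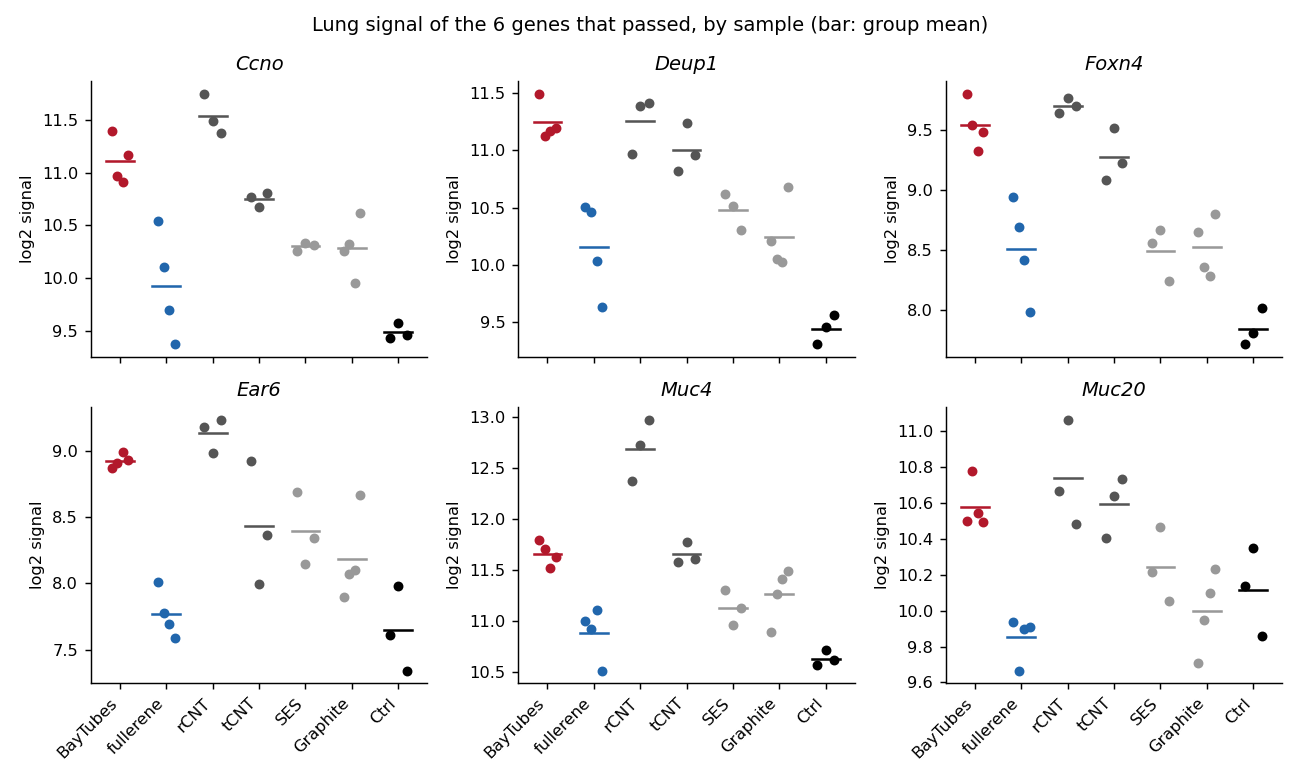
Log2 signal of the 6 changed genes in every sample, 1 panel a gene, with groups along the horizontal axis and a bar at each group mean. In each panel the 4 BayTubes points (red) lie above the 4 fullerene points (blue), and for Ccno the points run from 10.91 to 11.40 in BayTubes and from 9.37 to 10.54 in fullerene samples.

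All 6 genes had groups that did not overlap, as did 871 of all genes tested, which is 5.27%. BayTubes lay above fullerene in 250 genes (1.51%) and below in 621 (3.76%). Over all genes the median difference was -0.02, and 45.7% of genes had a positive one. Counts of positive genes in the lists below stand beside this share. Genes of a list can move together across samples, so such counts are a description.

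**Figure D2:**
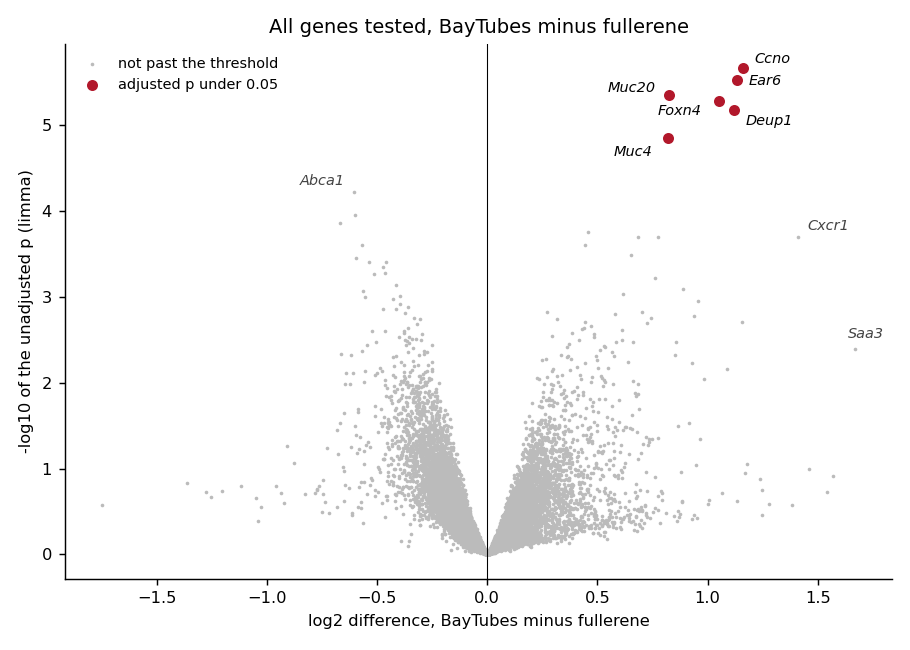
Each point is a gene, with the log2 difference (BayTubes minus fullerene) on the horizontal axis and -log10 of the unadjusted limma p on the vertical axis. The 6 genes past the threshold are red and lie between 0.82 and 1.16, while Saa3, at 1.67, has the highest difference of all genes tested and did not pass.

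Whether these genes passed depended on single samples, while the sign did not. Without fullerene 21, 12 genes passed in limma, all higher in BayTubes samples: the 6 together with Saa3, Saa1, Ly6i, Ly6f, Ccl2 and Cd14. Without BayTubes 19 only Ccno passed. Leaving out any other one of the samples (BayTubes 17, 18 or 20, or fullerene 22, 23 or 24) left 0 genes in limma, with 443 to 1026 genes at an unadjusted p under 0.05. Over the 8 fits that each left out 1 sample, the difference stayed between 0.95 and 1.33 for Ccno, 0.92 and 1.22 for Deup1, 0.85 and 1.18 for Foxn4, 1.08 and 1.20 for Ear6, 0.67 and 0.88 for Muc4, and 0.79 and 0.87 for Muc20. With slide as a fixed term 1 gene passed, Muc20, and the differences of the 6 genes kept their sign.

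**Figure D3:**
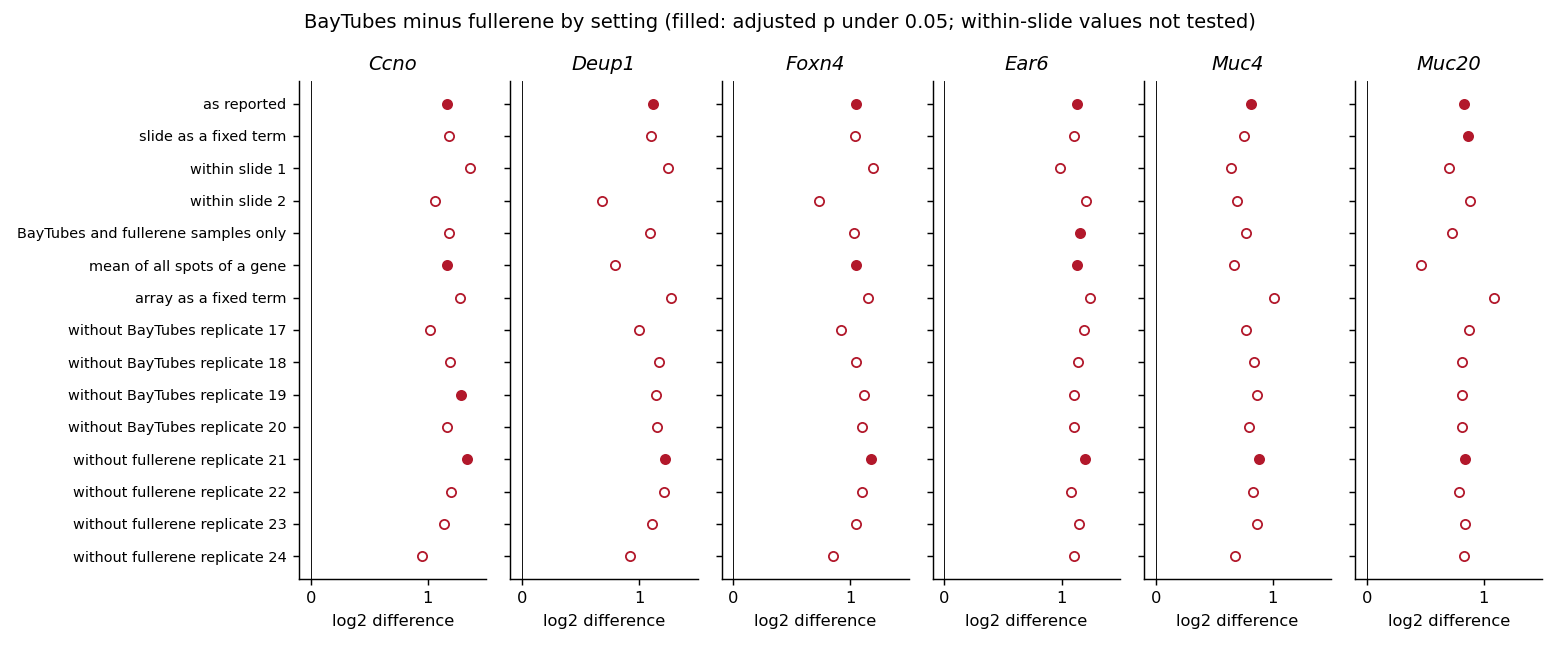
Log2 difference (BayTubes minus fullerene) of the 6 genes, 1 panel a gene, under each setting named at the left. Filled points passed an adjusted p of 0.05 and open points did not or, within a slide, were not tested. Every point lies above 0, and most fits that leave out 1 sample have open points.

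Differences from Ctrl place the 6 genes in relation to vehicle lungs. They share the 3 Ctrl samples, so the values stand side by side without a count. Ccno was above Ctrl by 1.59 ± 0.17 in BayTubes samples and 0.42 ± 0.19 in fullerene samples (SE, limma). For Deup1 the differences from Ctrl were 1.79 in BayTubes and 0.67 in fullerene samples, and for Foxn4 they were 1.72 in BayTubes and 0.67 in fullerene samples.

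Ear6 stood 1.20 above Ctrl in BayTubes samples and 0.06 above in fullerene samples. Muc4 was above Ctrl by 1.01 in BayTubes and by 0.19 in fullerene samples. For Muc20 the values were 0.48 in BayTubes and -0.34 in fullerene samples, so its Ctrl samples, at 10.14, 10.35 and 9.86, lay between both means. For the other 5 genes the mean of the fullerene samples was above that of Ctrl too, by less than that of the BayTubes samples.

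The 6 genes were also higher on average after rCNT and after tCNT than after Graphite. Those samples entered the fit only through its shared dye, array and variance estimates. The differences of rCNT from Graphite were 1.10 for Ccno, 0.92 for Deup1, 1.09 for Foxn4, 0.85 for Ear6, 1.41 for Muc4 and 0.70 for Muc20 (limma log2 differences, 3 against 4 samples). For tCNT minus Graphite they were 0.48, 0.76, 0.75, 0.31, 0.47 and 0.56 in the same order, with adjusted p from 0.169 to 0.556 in limma. All 6 genes were thus positive in both differences, as were 30.8% of all genes tested. The median of the 6 was 1.01 for rCNT minus Graphite and 0.52 for tCNT minus Graphite. Both share the Graphite samples, and 4 of the arrays behind them also hold a BayTubes or fullerene sample.

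The group means show where BayTubes and fullerene stand among the materials. The Ccno means were 11.11 ± 0.22 in BayTubes and 9.93 ± 0.51 in fullerene samples, beside 11.54 ± 0.19 in rCNT, 10.75 ± 0.07 in tCNT, 10.30 ± 0.04 in SES, 10.29 ± 0.27 in Graphite and 9.49 ± 0.07 in Ctrl samples (SD, n = 4, 4, 3, 3, 3, 4 and 3). Muc4 had means of 11.66 in BayTubes and 10.88 in fullerene samples, beside 12.69 in rCNT, 11.65 in tCNT, 11.13 in SES, 11.27 in Graphite and 10.63 in Ctrl samples. In both genes the BayTubes mean was below that of rCNT and the fullerene mean was nearest to that of Ctrl. The same order held for Ear6, with 8.93 in BayTubes, 7.77 in fullerene and 7.64 in Ctrl samples, and for Deup1, with 11.25 in BayTubes, 10.16 in fullerene and 9.45 in Ctrl samples, although Deup1 had nearly the same mean after rCNT (11.26) as after BayTubes. It did not hold for Foxn4, whose means of 8.51 in fullerene, 8.49 in SES and 8.53 in Graphite samples were alike, nor for Muc20, whose fullerene mean of 9.85 lay below the 10.11 of Ctrl and farther from it than the 10.00 of Graphite. For Ear6 the tCNT mean of 8.43 was close to the 8.39 of SES samples, beside 8.18 in Graphite samples.

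A list of genes of multiciliated cell formation was drawn up after these values were seen, and its counts are a description. Of its 24 genes, 23 were tested, 3 passed, 20 had a positive difference and the median was 0.13, against -0.02 over all genes. The averaged level of the list above the Ctrl mean was 0.60, 0.44, 0.46 and 0.55 in BayTubes samples 17 to 20, against 0.37, 0.38, 0.06 and 0.14 in fullerene samples 21 to 24. The groups did not overlap in this average, but the 3 changed genes, whose own groups do not overlap, contribute to it. The list was drawn up around them, so this separation is no result about its other members.

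Besides Ccno, Deup1 and Foxn4, no gene of this list passed. Stil, a centriole assembly gene, had a difference of 0.72 ± 0.33 and the cyclin gene Ccna1 one of 0.59 ± 0.26 (SE, limma adjusted p = 0.966 for both). The difference was 0.34 for Gmnc, the geminin coiled-coil protein 1 gene, 0.34 for the transcription factor gene Myb, 0.31 for Ccdc78, which acts in centriole amplification, and 0.18 for Trp73, a factor of the p53 family. Gmnc was dim, with means of 6.66 in BayTubes and 6.28 in fullerene samples. Its difference ran from -0.0579 to 0.663 over the alternative settings. Mcidas differed by 0.11 ± 0.14, Foxj1, the forkhead regulator of motile cilia, by 0.09 ± 0.17, and the centriole gene Cep152 by 0.00 ± 0.17. The Mcidas spot was bright, with means of 14.40 in BayTubes and 14.24 in fullerene samples. For rCNT minus Graphite it differed by -0.40, where Ccno differed by 1.10 and Foxj1 by 1.72. How well the spot reports Mcidas was not tested.

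In the list of ciliated cell markers, 19 of 20 genes were tested, 1 passed (Ccno), 17 were positive, and the median was 0.17. At an unadjusted p under 0.05, 8 were higher and 0 lower, beside 292 higher and 514 lower of all 16530 genes tested. Tekt4, a tektin of the cilium's microtubules, had 10.78, 10.76, 10.46 and 10.45 in BayTubes samples, against 9.90, 10.59, 10.14 and 10.16 in fullerene samples, a difference of 0.43 ± 0.15 (SE, limma adjusted p = 0.899). The difference was 0.32 for Tekt1, 0.32 for Rsph1, a radial spoke gene, and 0.30 for Tubb4b, a tubulin gene of cilia. The list median was 0.32 within slide 1 and -0.08 within slide 2, where it turned sign. The averaged level of the list above the Ctrl mean ran from 0.318 to 0.489 in BayTubes samples and from 0.049 to 0.342 in fullerene samples, which overlap.

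Of 8 mucin genes tested, 5 had a positive difference and 3 a negative one, and only the membrane mucins Muc4 and Muc20 passed. Muc5ac, a secreted mucin of goblet cells, had 8.78, 7.47, 7.55 and 7.65 in BayTubes samples, against 7.92, 7.07, 7.16 and 6.85 in fullerene samples, a difference of 0.57 ± 0.35 (SE, limma adjusted p = 0.966). Muc5b, the other gel-forming mucin of the airway, differed by 0.64 ± 0.33 and the membrane mucin Muc1 by 0.38 ± 0.21, neither of which passed. The negative ones were Mucl1, a small mucin-like gene, at -0.19, Muc16, a membrane mucin, at -0.05 and Muc13, another membrane mucin, at -0.01. Mucl1 was dim, with means of 5.46 in BayTubes and 5.68 in fullerene samples, below the filter's cut of 5.69 to 5.75. Muc13 was not far above the cut, at 6.37 in BayTubes and 6.41 in fullerene samples.

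In the list of mucus-making cells, 11 of 14 genes were tested, 10 were positive, 0 passed in limma and the median was 0.49, with 0.17 within slide 1 and 0.60 within slide 2. Agr2, which helps fold mucins, had a difference of 0.93 ± 0.30, and Slc26a4, the anion exchanger pendrin, one of 0.87 ± 0.38. Clca1, a secreted goblet cell protein, had 12.51, 10.29, 10.45 and 10.58 in BayTubes samples 17 to 20, against 8.62, 7.97, 12.33 and 10.64 in fullerene samples 21 to 24. Its groups overlapped widely, with BayTubes 17 and fullerene 23 alike.

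No other tested gene of the Ear6 family passed, nor did any other eosinophil marker. Of 13 Ear ribonuclease genes looked up after Ear6 was known, 5 were tested, of which 2 were positive, and the median was -0.62. Ear10 had 12.12, 12.01, 11.88 and 12.10 in BayTubes samples, against 12.53, 13.04, 12.43 and 12.47 in fullerene samples, a difference of -0.62 ± 0.19 that did not pass (limma adjusted p = 0.800). Ear2, a gene of alveolar macrophages too, differed by -0.65 ± 0.38.

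In the list of eosinophil, basophil and mast cell markers, 11 of 16 genes were tested, and besides Ear6 none passed. The list median was -0.05 and 7 of the 11 were negative. Siglecf, a receptor of eosinophils and alveolar macrophages, differed by -0.51 ± 0.20 and Il5ra, the interleukin 5 receptor of eosinophils, by -0.05 ± 0.11. The averaged level of the list above the Ctrl mean ran from -0.02 to 0.31 in BayTubes samples and from -0.12 to 0.28 in fullerene samples, which overlap. Of its defining markers, Epx, Mcpt8, Ms4a2, Tpsab1 and Fcer1a were not among the genes tested.

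Cell division genes had mostly positive differences without a gene that passed. Of 30 mitosis genes 28 were tested, 27 were positive, and the median was 0.48. At an unadjusted p under 0.05, 13 were higher and 0 lower, beside 292 higher and 514 lower of all 16530 genes tested. The averaged level above the Ctrl mean was 1.46, 0.60, 0.77 and 1.39 in BayTubes samples 17 to 20, against 1.17, 0.59, 0.39 and 0.25 in fullerene samples 21 to 24. The groups overlapped because fullerene 21 was near the upper BayTubes samples, and without it the median was 0.70.

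Cdc20, the activator of the anaphase-promoting complex, had 11.47, 10.38, 10.63 and 11.35 in BayTubes samples, against 10.74, 10.39, 9.82 and 9.29 in fullerene samples, a difference of 0.86 ± 0.26 (SE, limma adjusted p = 0.736). The difference was 0.69 for Top2a, a topoisomerase of dividing cells, and 0.67 for the cyclin-dependent kinase gene Cdk1. In the DNA replication list, 23 of 24 tested genes were positive with a median of 0.28, among them Tk1, thymidine kinase, at 0.52 and Gins1, of the replication helicase, at 0.48.

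Several inflammatory genes separated BayTubes samples from 3 of the 4 fullerene samples. Saa3, an acute phase serum amyloid made in lung, had 11.60, 10.67, 11.52 and 11.79 in BayTubes samples 17 to 20, against 12.35, 8.90, 8.79 and 8.93 in fullerene samples 21 to 24. Fullerene 21 exceeded every BayTubes sample, while the other fullerene samples lay below all of them. The difference was 1.67 ± 0.51 (SE, limma adjusted p = 0.777), and 2.48 without fullerene 21 (adjusted p = 0.000236). The smaller p comes from leaving out the sample that was high in this same gene, so it is no independent support.

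The monocyte chemokine gene Ccl2 had 9.20, 9.80, 8.78 and 9.73 in BayTubes samples, against 9.55, 7.95, 7.72 and 7.71 in fullerene samples, a difference of 1.16 ± 0.32 (limma adjusted p = 0.699), and 1.59 without fullerene 21. Saa1, the related serum amyloid gene, differed by 0.98 and by 1.49 without fullerene 21. Without that sample the differences were 1.07 for Ly6i and 1.03 for Ly6f, both of the Ly6 family of surface proteins, and 0.66 for Cd14, the endotoxin co-receptor.

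Of 18 acute phase genes 16 were tested, 14 were positive, 0 passed and the median was 0.38, or 0.53 without fullerene 21. At an unadjusted p under 0.05, 10 were higher and 0 lower, beside 292 higher and 514 lower of all 16530 genes tested. Serpina3n, a protease inhibitor, had 10.83, 10.14, 10.45 and 10.77 in BayTubes samples, against 10.13, 9.65, 9.59 and 9.23 in fullerene samples, a difference of 0.89 ± 0.22 (SE, limma adjusted p = 0.527). Lcn2, an iron-binding lipocalin, differed by 0.94, Cp, the copper carrier ceruloplasmin, by 0.62 and Hp, the haemoglobin carrier haptoglobin, by 0.49.

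In the list of chemokines and cytokines that attract monocytes and neutrophils, 15 of 17 tested genes were positive and the median was 0.32. Cxcl1, a neutrophil chemokine, had 7.71, 7.56, 7.99 and 7.70 in BayTubes samples, against 7.52, 6.58, 6.66 and 6.65 in fullerene samples, and differed by 0.85 ± 0.27 without passing. All 16 tested neutrophil markers were positive, with a median of 0.17, a member at 0.64 (Lrg1) and one at 0.57 (Retnlg). Only 1 of them had an unadjusted p under 0.05 in limma. The averaged level of the list above the Ctrl mean ran from 0.042 to 0.669 in BayTubes samples and from 0.0417 to 0.546 in fullerene samples, which overlap. S100a9, one of the most abundant neutrophil genes, differed by 0.49 ± 0.70, with a wide spread in fullerene samples from 12.32 to 14.31.

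Cxcr1, a receptor for neutrophil chemokines, had 8.19, 8.50, 8.69 and 7.87 in BayTubes samples, against 7.80, 7.46, 6.17 and 6.89 in fullerene samples. These groups did not overlap, and the difference of 1.41 ± 0.31 had a limma adjusted p of 0.257.

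**Figure D4:**
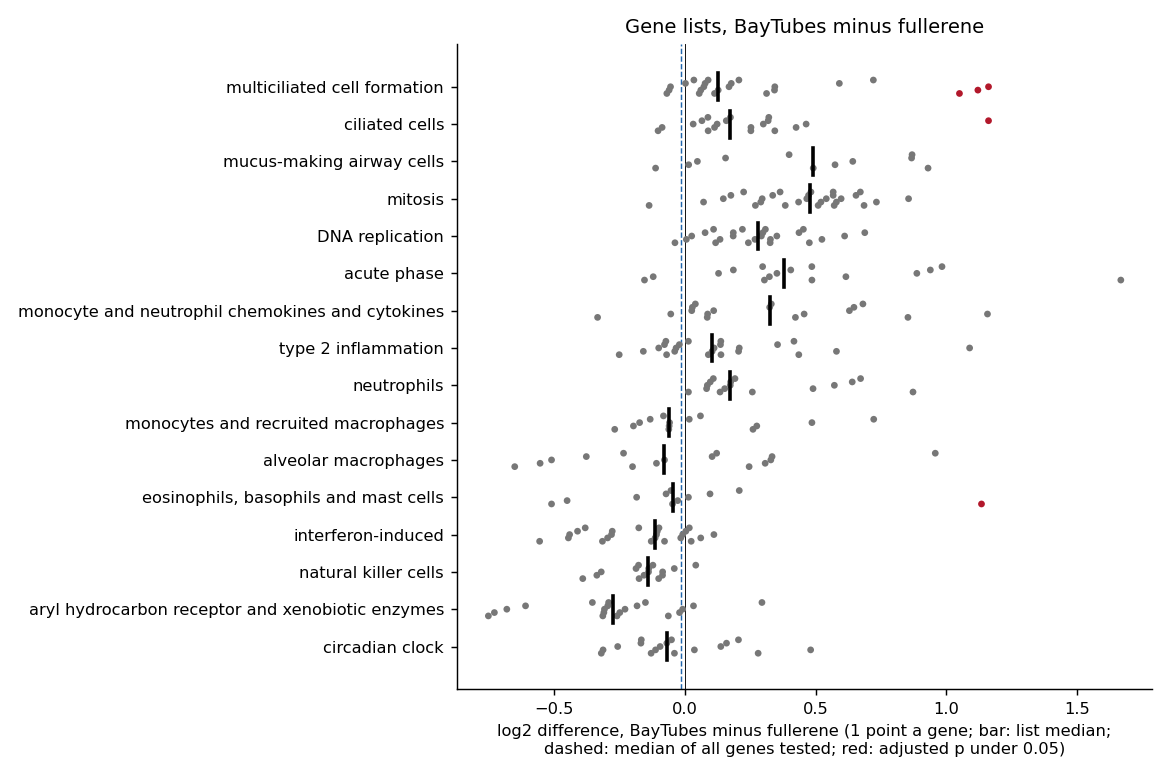
Log2 difference (BayTubes minus fullerene) of each tested gene, 1 row a list, with a black bar at the list median and a dashed line at the median of all genes. Red points passed, and they are Ccno, Deup1, Foxn4 and Ear6. The medians of mucus-making cells (0.49) and mitosis (0.48) lie farthest right and that of the xenobiotic enzymes (-0.28) farthest left.

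Type 2 genes, which mark allergic-type inflammation, were mixed. Of 23 tested, 14 were positive, 0 passed and the median was 0.10. Retnla, a secreted protein induced by interleukin 4 and 13, had 16.69, 16.00, 16.20 and 16.49 in BayTubes samples, against 15.63, 15.62, 15.06 and 14.71 in fullerene samples, a difference of 1.09 ± 0.36 (SE, limma adjusted p = 0.899). Its groups did not overlap, nor did those of the chemokine gene Ccl17, which differed by 0.58.

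Other lists had mostly negative differences. For genes of the aryl hydrocarbon receptor and xenobiotic enzymes, 18 of 20 tested genes were negative, 0 passed and the median was -0.28. Pon1, a lactone-cleaving esterase, differed by -0.61 ± 0.21 and Cyp1b1, a target of the receptor, by -0.31 ± 0.13. Natural killer cell markers were negative in 14 of 15 genes, with a median of -0.14. Among interferon-induced genes 18 of 23 were negative with a median of -0.11, led by Ifi44 at -0.56 ± 0.19 and Cmpk2 at -0.41 ± 0.15.

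Alveolar macrophage genes went both ways, with Ctsk, a collagen-cleaving cathepsin, at 0.96 ± 0.25, Cidec, a lipid droplet protein, at -0.55 ± 0.14 and Krt79, a keratin, at -0.38 ± 0.13. None of these passed. Leaving aside the 3 lists added after the values were seen (multiciliated cell formation, mucin genes and Ear ribonuclease genes, each with a member that passed), there were 45 lists. Of these, 43 had no member that passed and 39 had a median between -0.25 and 0.25, with the lowest at -0.28 and the highest at 0.49.

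Among genes with the next smallest p, none passed in limma. Abca1, the cholesterol exporter, came closest on the negative side, with 10.23, 10.22, 10.36 and 10.70 in BayTubes samples, against 11.16, 11.05, 10.74 and 11.14 in fullerene samples. Its difference was -0.61 ± 0.12 (SE, adjusted p = 0.142), with groups that just failed to overlap. With sample weights Abca1 passed in limma (adjusted p = 0.00438, difference -0.69), as did Gprc6a, Gata6os, 9330179D12Rik, Nfkbil1, Nanos1, Fam43a, Rcor2, Foxc1 and Ear10 with negative differences and Cxcr1 and Ntsr2 with positive ones. Slc13a4, a sulfate transporter, differed by -0.60, Gprc6a, a receptor for amino acids, by -0.67, and Gata6os by -0.59.

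On the positive side, Cxcl17, a chemokine of mucosal surfaces, had 12.19, 11.96, 11.78 and 12.00 in BayTubes samples, against 11.40, 11.65, 11.76 and 11.35 in fullerene samples, a difference of 0.46 ± 0.10 (adjusted p = 0.257). The difference was 0.78 for the neurotensin receptor gene Ntsr2, 0.76 for the keratin-associated gene Krtap11-1, 0.68 for AU040972, 0.65 for Ybx2, an RNA-binding protein of germ cells, and 0.44 for Abcc8, a subunit of a potassium channel. Negative differences of the same rank were -0.57 for Kcnip4, -0.56 for 9330179D12Rik, -0.54 for Nfkbil1, -0.51 for Upk1a, -0.47 for Nanos1 and Bcan, -0.46 for Fam43a, -0.43 for Rcor2, -0.41 for Foxc1 and -0.40 for Tbx3.

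The clock genes were the reason for setting this pair side by side, so their levels are a description. Arntl, a core activator of the clock, had 7.31, 6.99, 7.36 and 7.65 in BayTubes samples, against 7.75, 7.20, 7.31 and 7.48 in fullerene samples and 9.36, 9.70 and 9.46 in Ctrl samples. Both materials thus lay far below Ctrl and overlapped each other, with a difference of -0.04 ± 0.18 between them. Per2, a repressor of the clock, had means of 9.93 in BayTubes, 10.14 in fullerene and 8.54 in Ctrl samples.

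Of 17 clock genes tested, 6 had a positive difference, and the median was -0.07, with a range from -0.32 to 0.48. The largest positive one was Nr1d1, a nuclear receptor repressor, at 0.48 ± 0.29. Cry1, another repressor, had 6.29, 6.11, 6.39 and 6.37 in BayTubes samples, against 6.82, 6.46, 6.68 and 6.80 in fullerene samples, and was the only clock gene whose groups did not overlap. Clock itself differed by -0.32 ± 0.16, Per1 by -0.26, Per3 by 0.28 and Dbp, an output gene, by -0.05.

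**Figure D5:**
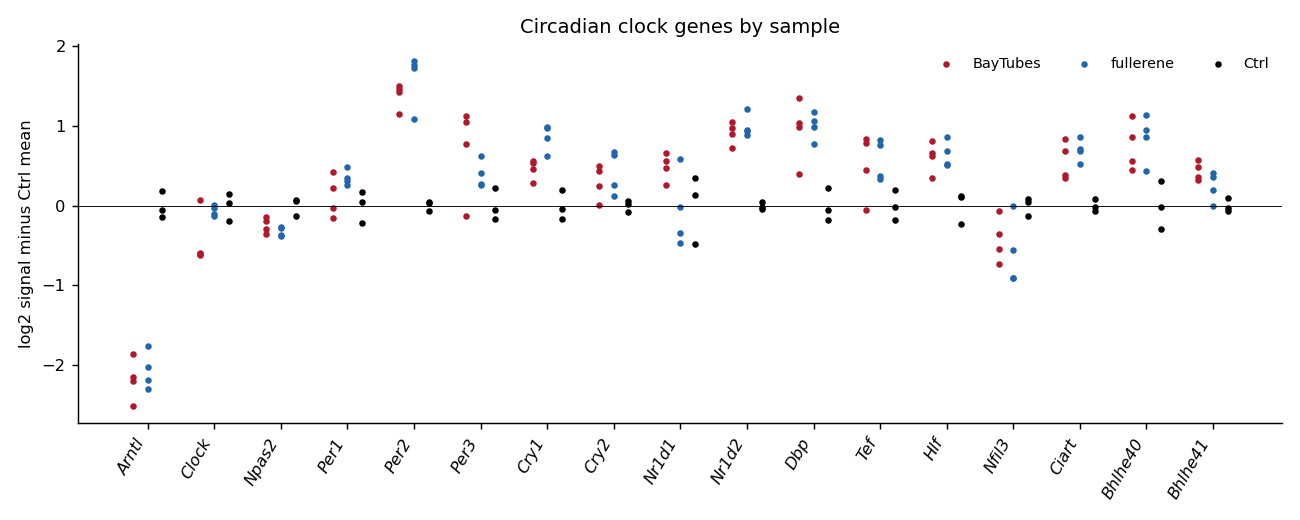
Log2 signal of 17 clock genes in each BayTubes, fullerene and Ctrl sample, minus the gene's Ctrl mean. For Arntl the BayTubes and fullerene points lie together well below Ctrl, at means of 7.32 and 7.44 against 9.51, and for Cry1 the BayTubes points (6.11 to 6.39) lie below the fullerene points (6.46 to 6.82).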

How the data were processed

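The deposited values were log2 signals, 1 per spot and sample, made by the authors from 12 two-colour arrays. The submitters' processing notes name Agilent Feature Extraction and limma, and the background correction is not given in the sources used here. When each sample's values were sorted, samples were never more than 0.0856 apart at the same rank, a pattern that quantile normalization leaves. Of 62976 spots, 31465 had a gene name, updated with RefSeq tables of GRCm38.p6 (29050 by accession, 2061 by symbol, 349 by synonym, 5 kept as given). A gene needed a signal above its sample's 40th percentile (5.69 to 5.75) in 3 or more samples. Its brightest spot on average stood for it, and 16530 of 20738 genes were kept.

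Differences came from limma 3.58.1 in R 4.3.3 over all 24 samples, with group and dye as terms and array as a random block (statmod 1.5.0, correlation 0.400). Variances were moderated by eBayes, with 16 degrees of freedom from residuals and 3.54 from the prior, followed by 2-sided tests and Benjamini-Hochberg adjustment over all genes tested. The median standard error was 0.14. Since array signals have no counting depth, precision depends on how many samples there were. On simulated data of this comparison, with 16530 genes of which 200 changed, the fit found 58.2, 94 and 98.5% of genes changed 1.5-, 2- and 4-fold, with 6.7% of its calls among unchanged genes. The simulated noise was normal, no sample stood apart, and far more genes changed than the 6 that passed here. These shares therefore hold for that setting and do not give the share of real changes found. In the real data Saa3, Cxcr1, Ccl2 and Retnla differed more than 2-fold and did not pass.

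The members and lists were chosen with earlier results of these data known, and 3 lists (multiciliated cell formation, mucin genes, Ear ribonuclease genes) after the values of this comparison were seen. Named genes were those past the threshold, the 2 with the smallest p in each list without such a gene, the clock genes and the 30 with the smallest p, of which a selection is printed. The other members of the multiciliated cell, mucin, ciliated cell, Ear and eosinophil groups, Cdk1, S100a9, the lung markers and the genes tied to fullerene 21 were named after their values were seen. Of the 8 mucin genes tested, 2 passed, and the median was 0.48. Alternatives changed the dye, array and slide terms, the samples, sample weights, the threshold, the filter, the choice of spot, the normalization and the variance prior.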

Additional observations from a re-analysis of the deposited data

Results flagged for a closer look

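In groups of 4, a sample was marked when its gap to the nearest other took up more of the group's range than Dixon's critical value for 4 samples allows. Of 210 such groups, from 105 genes, 20 held a marked sample. Chance alone marks about 1 in 20, but that rate does not hold for genes picked by their values. Some of the 105 genes were named after their values were seen, among them those tied to the fullerene sample that stood apart. Genes can also move together across samples, so the count is a description and cannot be compared with chance.

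Fullerene 21 was marked in 7 genes. Its signal was 12.4 for Saa3 (8.79 to 8.93 in the other fullerene samples), 9.55 for Ccl2 (7.71 to 7.95), 7.52 for Cxcl1 (6.58 to 6.66), 10.3 for Saa1 (7.90 to 8.24), 8.68 for Ly6i (7.04 to 7.18), 10.2 for Slc26a4 (8.80 to 9.00) and 18.0 for Scgb1a1 (17.4 in each of the others).

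BayTubes 17 was marked at 12.5 for Clca1 (10.3 to 10.6 in the other BayTubes samples), 8.78 for Muc5ac (7.47 to 7.65) and 16.2 for Cyp2f2, a club cell enzyme (16.4 to 16.5). BayTubes 18 was marked at 10.8 for Muc20 (10.5 in each of the others) and BayTubes 20 at 9.32 for Clock (8.63 to 8.66).

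Fullerene 22 was marked at 9.67 for Muc20 (9.90 to 9.94 in the other fullerene samples), 14.6 for Mcidas (14.1 in each of the others) and 13.0 for Ear10 (12.4 to 12.5). Fullerene 23 was marked at 9.17 for Bcan (8.65 to 8.71), 14.0 for Ear2 (15.0 to 15.1) and 9.64 for Per2 (10.3 to 10.4). Fullerene 24 was marked at 7.47 for Abcc8 (7.65 to 7.69) and 7.00 for Nanos1 (6.84 to 6.86).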

How the results depend on the processing

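The count of 6 changed genes, all higher, was 6 without the dye term, without the filter, with a filter at the 60th percentile, with quantile normalization repeated, with each sample centred on its median, with a trended and robust variance prior, at 1.5-fold or more, and after the array shared by rCNT 4 and Graphite 16 was left out. It was 4 without the array block, 3 with the mean of all spots, 1 with slide as a fixed term, 1 with only the BayTubes and fullerene samples, 0 with array as a fixed term (limma, 726 at an unadjusted p under 0.05) and 0 at an adjusted p under 0.01. With sample weights it was 22, of which 9 were higher and 13 lower. Over the fits that each left out 1 sample, the counts of changed and of higher genes ran from 0 to 12. The cause of these shifts was not tested. The differences of the 6 genes kept their sign under every alternative run. With the mean of all spots, Muc20 differed by 0.461.

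No paired analysis was possible because the BayTubes and fullerene samples share no replicate number. Slide 3 holds no BayTubes sample, so the slide comparison rests on slides 1 and 2, with 1 fullerene sample each. All groups share 1 estimate of the spread per gene.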

Other observations

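Spots without a gene name were tested apart. Of 16650 such spots, 0 passed an adjusted p of 0.05 in limma, and 618 had an unadjusted p under 0.05.

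Outside the groups described above, Gdf15, a stress-induced cytokine, had 9.07, 8.38, 8.10 and 8.40 in BayTubes samples, against 8.12, 7.59, 7.94 and 7.44 in fullerene samples, a difference of 0.70 ± 0.19 (SE, n = 4 each, limma adjusted p = 0.661). Timp1, an inhibitor of matrix metalloproteinases, had 11.56, 10.46, 10.89 and 12.48 in BayTubes samples, against 11.35, 10.08, 10.24 and 9.65 in fullerene samples, a difference of 0.92 ± 0.39. Fdft1, squalene synthase of cholesterol synthesis, had 10.09, 9.99, 10.22 and 10.02 in BayTubes samples, against 9.66, 9.93, 9.78 and 9.59 in fullerene samples, with no overlap and a difference of 0.38 ± 0.12. In the list of cholesterol and fatty acid synthesis, 17 of 21 tested genes were positive, 0 passed in limma and the median was 0.19. At an unadjusted p under 0.05, 3 were higher and 0 lower, beside 292 higher and 514 lower of all 16530 genes tested. None of the genes named in this paragraph passed.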
